A study of Mus musculus with 4 samples.

Results

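The genes examined here are 10 genes by which resident macrophages of the bone marrow are recognized, among them the macrophages of erythroblastic islands. They are C1qa, C1qb, C1qc, Adgre1, Cd163, Mrc1, Spic, Cd5l, Axl and Mertk. They were chosen by name, and all 10 were found once among the 55401 genes of the transcript tables and were among the 18596 genes with a mean of at least 0.1 FPKM (fragments scaled to transcript length and library size). The libraries came from tibial bone marrow of male C57/B6 wild-type mice that had received a high-fat diet (HFD) from 8 weeks of age. After 6 weeks of HFD the obesity group (Ob) stayed on the diet with no other intervention, and the group that combined obesity with exercise (Ob + Exe) also ran on a treadmill at moderate intensity for 12 weeks. Of the 9 mice per group in the study, 2 libraries per group were sequenced. Both groups are obese, so no lean marrow stands beside these values.

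Resident macrophages sit in the marrow stroma, where they clear dying cells and the nuclei that erythroblasts expel. In an erythroblastic island, a central macrophage holds maturing erythroblasts on its surface and recycles iron from haem. These cells also secrete complement C1q, which tags debris for uptake, and they carry receptors that bind phosphatidylserine on dying cells through bridging proteins.

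The 4 libraries held from 8702 to 9952 Mb of aligned bases, with both Ob libraries above both Ob + Exe libraries. Correlations between libraries over the 12409 genes with a mean of at least 1 FPKM were 0.949 within Ob, 0.900 within Ob + Exe and 0.909 to 0.948 across the groups. Besides bone marrow, the labels carry the terms mesenchymal stem cells and fibroblast. Leukocyte markers, Ptprc among them at 103 to 191 scaled FPKM, summed to 934 to 1374, and erythroblast markers to 54306 to 82575. Fibroblast markers summed to 11.3 to 18.2. Mesenchymal stem and stromal markers summed to 116 to 174, led by Cxcl12 at 88.4 to 142. The values were therefore read as those of whole haematopoietic marrow, with stromal transcripts in them. In such bulk RNA, fewer macrophages and less RNA per macrophage cannot be told apart. The labels do not say whether a library is the marrow of a single mouse, and the p values cover only the spread between these samples.

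None of the 10 genes rose or fell at the thresholds used for calling a gene, an unadjusted p under 0.05 with a log2 fold change beyond 1 in limma. The number with an unadjusted p under 0.05 was also 0. Over all genes tested 3.74% were called, 510 lower and 186 higher in Ob + Exe, and the smallest Benjamini-Hochberg adjusted p from limma was 0.738. With limma voom on read equivalents (coverage multiplied by transcript length, divided by the 150-base read) the number of the 10 genes called was again 0. The log2 fold change of Ob + Exe over Ob was below 0 for 6 of the 10 genes and above 0 for 4, and the median was -0.10, beside -0.02 over all genes tested. Of all genes tested, 51.7% were below 0.

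The genes differed in whether the libraries of the groups overlapped. Exercise libraries lay entirely below the Ob libraries for C1qa, Cd163, Mrc1, Cd5l and Mertk, 5 of 10, where 18.3% of all genes showed this. They lay entirely above for Adgre1 alone, 1 of 10, where 14.3% of all genes did. C1qb, C1qc, Spic and Axl overlapped. Summed over the 10 genes, the level was 93.7 and 116 scaled FPKM in Ob against 115 and 95.1 in Ob + Exe, so that the lowest and the highest sum both belonged to Ob.

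**Figure D1:**
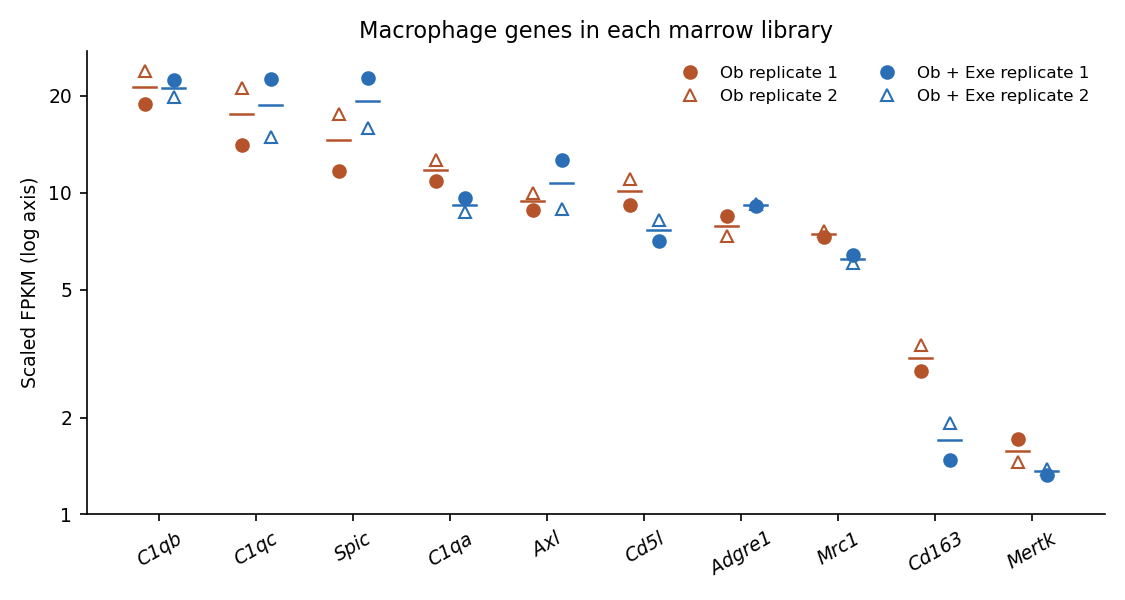
Scaled FPKM (y axis, log scale) of the 10 macrophage genes (x axis) in each library, with a point for each of 2 Ob and 2 Ob + Exe libraries and a line at each group mean. The points of the groups are apart for Cd163 and intermingled for C1qb, C1qc, Spic and Axl.

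**Figure D2:**
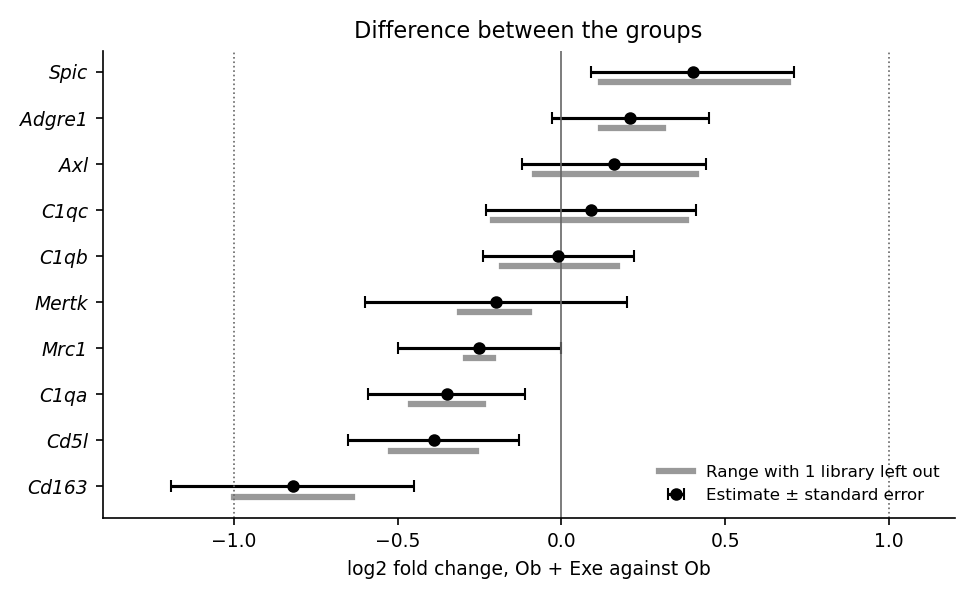
Log2 fold change of Ob + Exe over Ob (x axis) for the 10 macrophage genes, with bars of 1 standard error from limma and dashed lines at the calling thresholds of -1 and 1. Cd163 lies farthest from 0, at -0.82, and no gene lies beyond a threshold.

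Cd163 encodes the scavenger receptor through which macrophages take up haemoglobin, and it showed the largest difference of the 10. The gene lies on the plus strand at chr6:124304656-124330527 in GRCm38. Its level was 2.79 and 3.36 scaled FPKM in Ob against 1.48 and 1.92 in Ob + Exe, from 761, 922, 388 and 451 read equivalents in that order. Both exercise libraries were below both Ob libraries, with group means of 3.07 ± 0.403 in Ob and 1.70 ± 0.312 in Ob + Exe (SD, n = 2). The log2 fold change was -0.82 with an SE of 0.37, and limma gave an unadjusted p of 0.0687 and a Benjamini-Hochberg adjusted p of 0.959. Over 14 alternatives the unadjusted p ran from 0.0463 to 0.266 and the log2 fold change stayed below 0.

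The Cd163 signal was also divided differently among its transcripts. Cd163-201 and Cd163-202 share most of their exons, but exon 16 of Cd163-202 begins with 83 coding bases, at chr6:124328962-124329044, that Cd163-201 lacks. As 83 is not a multiple of 3, the reading frame of the tail downstream differs. The exon is shown because these bases set the transcripts apart, with the 83 bases in capitals, as read from the GENCODE vM21 transcripts of GRCm38 on the plus strand, 5′ to 3′.
Cd163-202 exon 16: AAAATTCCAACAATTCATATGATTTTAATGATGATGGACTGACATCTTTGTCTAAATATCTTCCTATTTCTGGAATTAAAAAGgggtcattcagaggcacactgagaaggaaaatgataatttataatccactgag

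Cd163-201, without these bases, was estimated at 1.86 and 2.56 scaled FPKM in Ob, and at 0 and 0.194 in Ob + Exe. It made up 66.7% and 76.3% of the gene in Ob against 0% and 10.1% in Ob + Exe. It led the gene in both Ob libraries and in neither Ob + Exe library. Cd163-202, which includes them, stood at 0.216 and 0.167 in Ob, and at 1.48 and 1.55 in Ob + Exe. Its share was 7.76% and 4.97% in Ob against 100% and 80.4% in Ob + Exe. The libraries of the groups were apart in both transcripts and in opposite directions.

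Tested one by one with limma, a test added after the data were seen, Cd163-201 fell by 3.74 on the log2 scale (SE 0.88, unadjusted p = 0.0124, Benjamini-Hochberg adjusted p = 0.556). Cd163-202 rose by 2.47 (SE 0.66, unadjusted p = 0.0193, Benjamini-Hochberg adjusted p = 0.623 in limma). The size of these folds depends on the pseudocount. With a pseudocount of 1 the log2 fold change was -1.55 for Cd163-201 and 1.08 for Cd163-202. The transcript Cd163-203, whose exon runs across the intron before the 83 bases and includes them, had 0.713 and 0.628 scaled FPKM in Ob against 0 and 0.183 in Ob + Exe (unadjusted p = 0.0693 in limma), and was not called. The call of Cd163-202 was lost with the replicate number as a block (unadjusted p = 0.0579 in limma). Without the first or the second Ob library, the calls of Cd163-201 (unadjusted p = 0.0860 and 0.104 in limma) and Cd163-202 (0.0567 and 0.0631) were both lost.

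Among all 46692 transcripts tested, 4.53% were called lower and 1.90% higher, and no transcript had an adjusted p under 0.05. Among 9684 genes with at least 2 transcripts and at least 1 FPKM in each library, 3.43% were led by a single transcript in both Ob libraries and by a different one in both Ob + Exe libraries. Of the 10 macrophage genes 7 met these conditions, and Cd163 alone of them had such a change of lead. The number of transcripts above 0 was 65644 and 53352 in Ob against 41028 and 48904 in Ob + Exe, so that more transcripts were listed at 0 in the exercise libraries, and the part of this in the transcript results was not tested. StringTie estimates these values by dividing shared reads, and the reads over the 83 bases themselves were not analysed here.

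**Figure D3:**
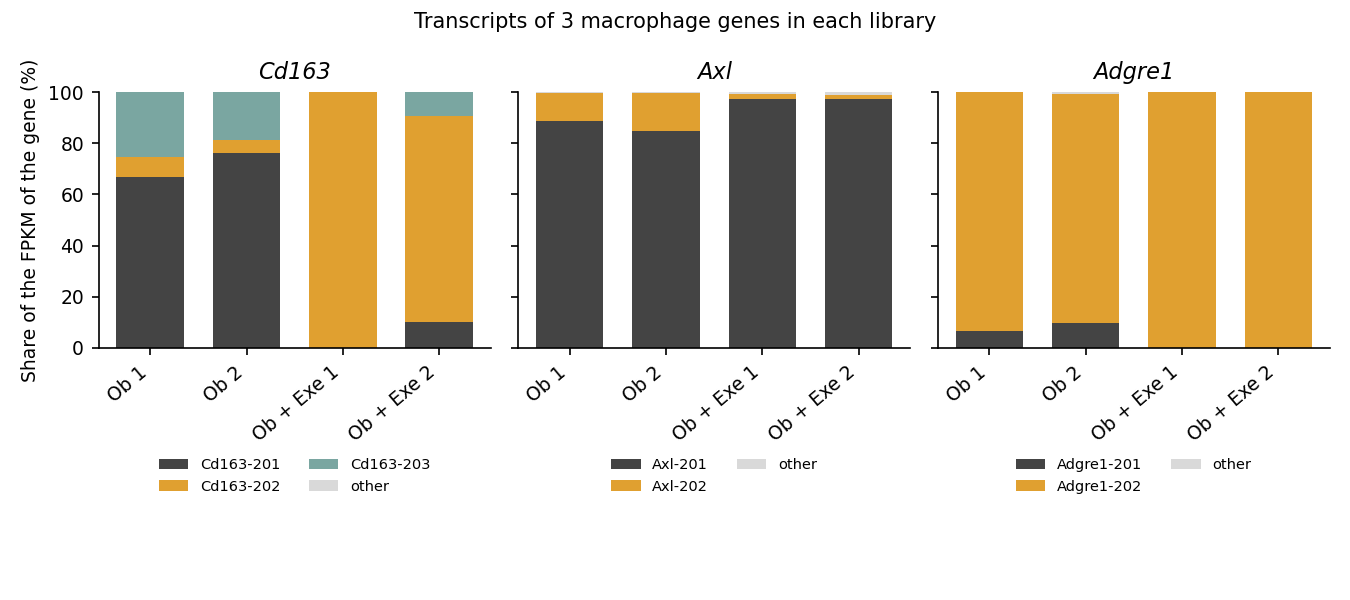
Share of the FPKM of Cd163, Axl and Adgre1 (y axis, %) held by each transcript, as a stacked bar for each of the 4 libraries. Cd163-201 leads in both Ob libraries with 66.7% and 76.3%, and Cd163-202 leads in both Ob + Exe libraries with 100% and 80.4%.

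Mrc1, the mannose receptor CD206 that takes up glycoproteins, lies at chr2:14229392-14332057. It stood at 7.27 and 7.59 scaled FPKM in Ob, and at 6.40 and 6.06 in Ob + Exe. The exercise libraries were lower without overlap, by 16.2% of the mean, and the log2 fold change of -0.25 (SE 0.25) had an unadjusted p of 0.358 in limma. The microRNA gene Mir511 within it was listed at 0 in all 4 libraries. As these were made from mRNA with a poly-A tail, the 0 is no measure of the microRNA.

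Cd5l, a secreted protein of tissue macrophages that belongs to the scavenger receptor cysteine-rich family as Cd163 does, lies at chr3:87357881-87371073. Its values were 9.15 and 11.0 scaled FPKM in Ob against 7.08 and 8.23 in Ob + Exe. Again the exercise libraries were the lower ones, with means of 10.1 ± 1.32 and 7.65 ± 0.815 (SD, n = 2). The log2 fold change was -0.39 with an SE of 0.26 and an unadjusted p of 0.178 in limma, and it was -0.26 without the second Ob library.

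Spic encodes a transcription factor that iron-recycling macrophages need and that haem induces. The gene lies on the minus strand at chr10:88674772-88685015. It was at 11.7 and 17.5 scaled FPKM in Ob and at 22.8 and 15.9 in Ob + Exe. The highest and the lowest library lay in different groups, but the second Ob library exceeded the second Ob + Exe library. The log2 fold change of 0.40 (SE 0.31, unadjusted p = 0.240 in limma) was 0.12 without the first and 0.69 without the second Ob library, and 0.15 without the first and 0.66 without the second Ob + Exe library. Spic and Cd163, both of the haemoglobin and iron branch, therefore had fold changes of opposite sign, neither of them called.

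The C1q genes encode the chains of the recognition molecule of the classical complement pathway, and each C1q molecule holds equal numbers of the 3 chains. The genes lie side by side on the minus strand of chromosome 4 within 18675 bases, in the order C1qb (chr4:136880129-136886187), C1qc (chr4:136889804-136893065) and C1qa (chr4:136895917-136898803). The gaps between them are 3616 and 2851 bases.

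C1qa was at 10.9 and 12.6 scaled FPKM in Ob, and at 9.62 and 8.74 in Ob + Exe. Both exercise libraries were below both Ob libraries (log2 fold change -0.35, SE 0.24, unadjusted p = 0.193 in limma). C1qb was at 18.8 and 23.9 in Ob and at 22.4 and 19.9 in Ob + Exe, with means of 21.3 ± 3.61 and 21.1 ± 1.77 (SD, n = 2). Its groups overlapped, and the log2 fold change was -0.01 (SE 0.23, unadjusted p = 0.980 in limma). C1qc was at 14.1 and 21.1 in Ob and at 22.5 and 14.9 in Ob + Exe, where each group held a high and a low library (log2 fold change 0.09, SE 0.32, unadjusted p = 0.799 in limma).

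Because these chains are built into a single molecule, their ratios were taken within each library, where library scaling has no part. The ratio of C1qa to C1qb was 0.579 and 0.529 in Ob against 0.430 and 0.439 in Ob + Exe. Both exercise libraries were lower, with a log2 difference of -0.35. The two-sided exact permutation test gave p = 0.33, the smallest that 2 against 2 libraries allow. The ratio of C1qa to C1qc was 0.771 and 0.598 in Ob against 0.428 and 0.586 in Ob + Exe, also without overlap (log2 difference -0.44, exact permutation p = 0.33). That difference was -0.26 without the first Ob library, -0.21 without the first Ob + Exe library and -0.67 without the second. The ratio of C1qc to C1qb was 0.750 and 0.885 in Ob against 1.01 and 0.750 in Ob + Exe, and its groups overlapped (exact permutation p = 1.0). These are 3 ratios of the same 3 values, and the third follows from the other two. C1qa had the lowest FPKM of the chains in every library.

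**Figure D4:**
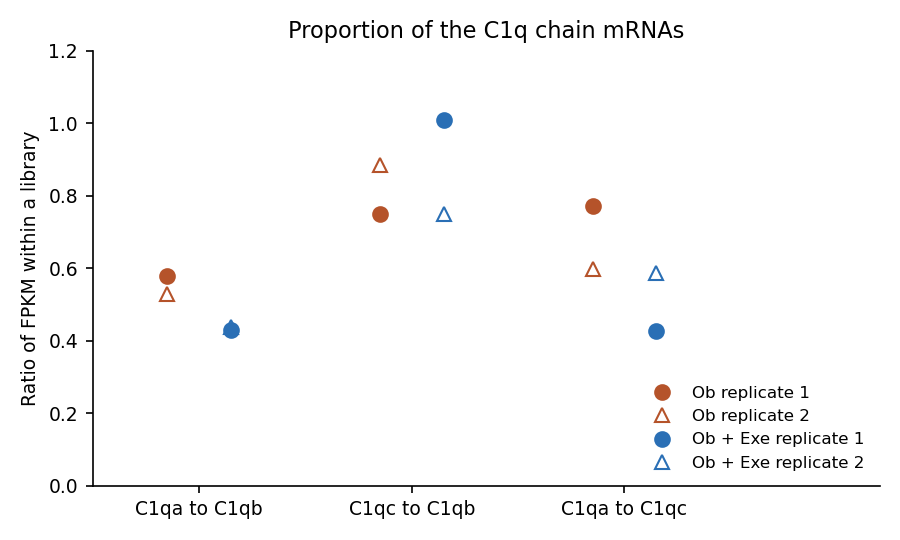
Ratios of FPKM between the C1q chain genes within each library (y axis), for C1qa to C1qb, C1qc to C1qb and C1qa to C1qc (x axis), with a point for each of 2 Ob and 2 Ob + Exe libraries. The ratio of C1qa to C1qb is 0.579 and 0.529 in Ob against 0.430 and 0.439 in Ob + Exe, and that of C1qc to C1qb overlaps.

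Adgre1 encodes F4/80, the adhesion G protein-coupled receptor used to mark mouse macrophages, at chr17:57358691-57483527. It was at 8.44 and 7.36 scaled FPKM in Ob and at 9.07 and 9.25 in Ob + Exe. Both exercise libraries were the higher ones here, by 15.9% of the mean. The log2 fold change of 0.21 had an SE of 0.24 and an unadjusted p of 0.414 in limma, and it was 0.31 without the first Ob library and 0.12 without the second. Its transcript Adgre1-202 held 93.5% and 89.4% of the gene in Ob and 100% in both Ob + Exe libraries. Adgre1-201, which has the same coding length and differs in the 3′ untranslated part of the last exon, was at 0.551 and 0.731 in Ob. It was listed at 0 in both Ob + Exe libraries, and limma called it lower (unadjusted p = 0.0162, Benjamini-Hochberg adjusted p = 0.595). That call was lost with the replicate number as a block (unadjusted p = 0.0578 in limma) and with a pseudocount of 1. The size of its fold depends on the pseudocount, and no fold is given.

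Axl and Mertk are receptor tyrosine kinases that bind dying cells through bridging proteins such as Gas6. Axl, at chr7:25757273-25788705 on the minus strand, was at 8.86 and 10 scaled FPKM in Ob and at 12.6 and 8.88 in Ob + Exe. The first Ob + Exe library was the highest and the second lay between the Ob libraries (log2 fold change 0.16, SE 0.28, unadjusted p = 0.572 in limma). Without that first library the log2 fold change was -0.08. Mertk, at chr2:128698956-128802894, was the lowest of the 10 genes, at 1.71 and 1.46 in Ob against 1.33 and 1.38 in Ob + Exe. The exercise libraries were lower without overlap, with a log2 fold change of -0.20 (SE 0.40, unadjusted p = 0.632 in limma), which was -0.10 without the first Ob library and -0.31 without the second.

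Axl-201 and Axl-202 differ by an exon of 27 bases, exon 10 of Axl-201 at chr7:25773099-25773125, which keeps the reading frame. It is shown in capitals between 24 bases from each of the exons beside it, on the strand of the gene, 5′ to 3′, as read from GENCODE vM21 transcripts of GRCm38, so that the joined exons of Axl-202 can be set against it.
Axl-201: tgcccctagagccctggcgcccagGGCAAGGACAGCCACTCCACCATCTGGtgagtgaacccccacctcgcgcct
Axl-202: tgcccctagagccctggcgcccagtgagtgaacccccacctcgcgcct

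Axl-202, which skips the exon, was at 0.954 and 1.5 scaled FPKM in Ob and at 0.255 and 0.162 in Ob + Exe. It made up 10.8% and 15.0% of Axl in Ob against 2.03% and 1.82% in Ob + Exe. Both exercise libraries were below both Ob libraries. It fell by 2.09 on the log2 scale (SE 0.72, unadjusted p = 0.0425, Benjamini-Hochberg adjusted p = 0.737 in limma). This size too depends on the pseudocount, and with a pseudocount of 1 the log2 fold change was -0.87. The call was lost in each of 7 alternatives, where the unadjusted p ran from 0.0527 to 0.105. Axl-201 led the gene in all 4 libraries, with 84.8% to 97.2%.

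Genes that work beside these were taken as lists. Of all genes tested, 51.7% were lower, 3.74% were called and 940 of 18596 had an unadjusted p under 0.05 in limma. In the macrophage gene list other than the 10, 9 of 18 tested genes were lower and 9 higher, and limma called 0 of them, with 0 at an unadjusted p under 0.05 and 1 called by limma voom. Its most abundant genes were Selenop, Apoe and Mpeg1. Selenop, a selenium carrier, was at 101 and 98.5 scaled FPKM in Ob and at 117 and 171 in Ob + Exe. Mpeg1, a pore-forming protein of phagocytes, was at 88.2 and 83.6 in Ob and at 86.9 and 91.1 in Ob + Exe, with the groups overlapping.

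Of 11 genes for adhesion and function of the erythroblastic island, 8 were lower and 3 higher, with a median log2 fold change of -0.16. The number called was 0 in limma and in limma voom, and 0 had an unadjusted p under 0.05. Vcam1, the macrophage ligand for erythroblast integrin, was at 35.8 and 35.3 scaled FPKM in Ob and at 40.3 and 38.4 in Ob + Exe. Summed erythroblast markers were 73440 and 73203 in Ob against 54306 and 82575 in Ob + Exe, so that the lowest and highest libraries were both of the exercise group.

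Of 14 genes for haem and iron recycling 5 were lower and 9 higher, with a median of 0.10. Cp alone was called. It encodes ceruloplasmin, the ferroxidase that loads iron onto its carrier, and it was at 2.09 and 3.0 scaled FPKM in Ob and at 5.48 and 5.17 in Ob + Exe. It rose by 1.06 on the log2 scale (SE 0.33, unadjusted p = 0.0198, Benjamini-Hochberg adjusted p = 0.959 in limma). Its read equivalents, 476 and 676 in Ob against 599 and 1095 in Ob + Exe, overlapped. They are not corrected for depth, which was 9952 and 9639 Mb in Ob against 8806 and 8702 Mb in Ob + Exe. The Ob + Exe libraries, close to each other in depth, had 5.48 and 5.17 scaled FPKM from 599 and 1095 read equivalents. The part of the division of reads among transcripts in this was not tested. Limma voom, which scales read equivalents between libraries, did not call Cp. The call was lost in 6 of 14 alternatives.

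Of 8 tested genes of the classical complement pathway beside C1q, 2 were lower and 6 higher, with a median of 0.31. Limma and limma voom called 0 of them, and 1 had an unadjusted p under 0.05. The most abundant was C3, the protein on which the complement pathways converge, at 52.6 and 30.7 scaled FPKM in Ob against 41.9 and 55.7 in Ob + Exe. C1rb was listed at 0 in all 4 libraries.

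Of 18 tested genes for recognition and engulfment of dying cells 14 were lower and 4 higher, with a median of -0.16. Limma called 0, with 0 at an unadjusted p under 0.05, and limma voom called 1. Gas6 and Pros1, which encode bridging ligands of this receptor family, are named here after their values were seen. Gas6 was at 8.39 and 12.6 scaled FPKM in Ob and at 12.7 and 11.1 in Ob + Exe (log2 fold change 0.21). Pros1 was at 5.81 and 4.59 in Ob and at 4.82 and 3.63 in Ob + Exe (log2 fold change -0.30). The groups overlapped for both. Of 15 growth factor and transcription factor genes of macrophages 6 were lower and 9 higher, with a median of 0.02. Limma and limma voom called 0 of these, and 2 had an unadjusted p under 0.05. Spi1, which encodes the myeloid factor PU.1, was at 91.4 and 59.4 in Ob against 71.9 and 91.6 in Ob + Exe.

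**Figure D5:**
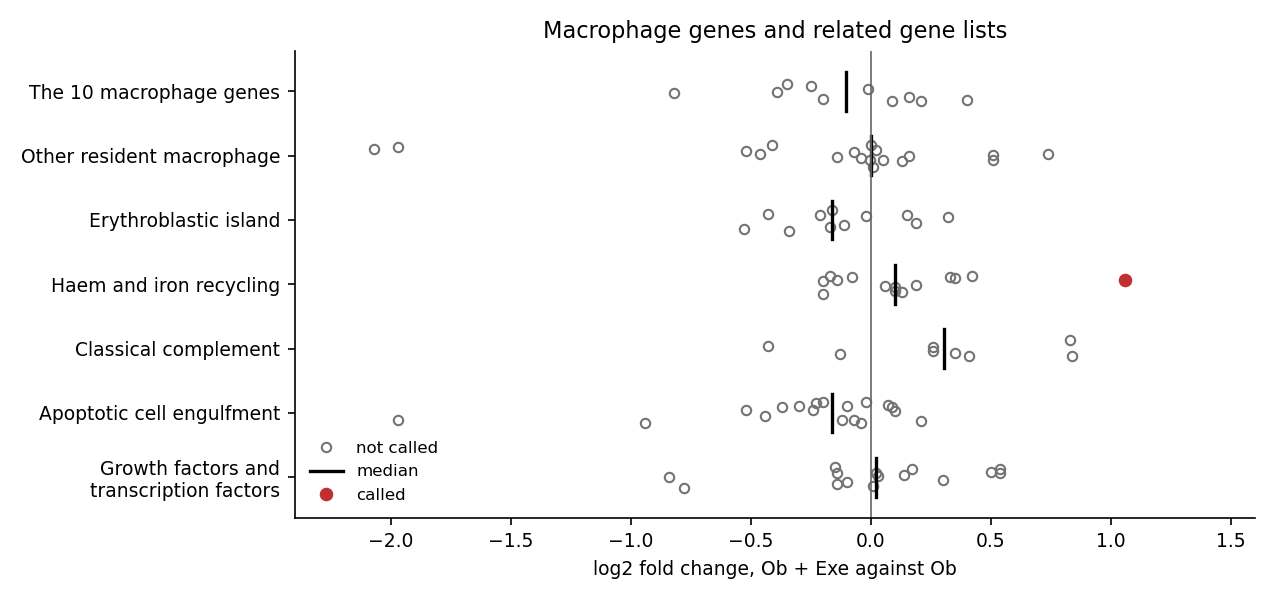
Log2 fold change of Ob + Exe over Ob (x axis) for each gene of the 10 macrophage genes and of 6 related lists, 1 list to a line (y axis), with a black bar at each list median. The medians lie between -0.16 and 0.31, and Cp is the called gene.

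Markers of other marrow cells varied between the libraries as well. Over all genes tested 51.7% were lower and 3.74% were called. The smallest Benjamini-Hochberg adjusted p of any gene was 0.738 in limma. Of 8 endothelial markers all 8 were lower and Plvap was called (log2 fold change -1.52, unadjusted p = 0.0257 in limma), with sums of 21.8 and 19.5 scaled FPKM in Ob against 14.6 and 12.9 in Ob + Exe. Of 7 megakaryocyte markers all 7 were lower, with sums of 464 and 342 against 380 and 141, and Gp1bb was called (log2 fold change -1.78, unadjusted p = 0.00440 in limma). Of 7 B cell markers 6 were lower, with sums of 185 and 194 against 154 and 122, and Cd79a was called (log2 fold change -1.04, unadjusted p = 0.00229 in limma). The sums of the groups were also apart for adipocyte markers, at 74.9 and 74.5 against 121 and 101 with none of 5 called. That sum was led by Fabp4, at 59.2 and 57.0 against 103 and 78.1. Of the 5 tested, 2 were lower and 3 higher, and Adipoq overlapped (4.03 and 5.90 against 4.07 and 8.70). Skeletal muscle marker sums were apart as well, at 9.84 and 5.49 against 12.8 and 13.2. Acta1 was called among the muscle markers (log2 fold change 1.55, unadjusted p = 0.0219 in limma). Of 10 neutrophil markers 9 were higher, with sums of 48998 and 27882 against 36218 and 65902. Of 5 tested osteoclast markers 2 were lower and 3 higher. Atp6v0d2 was called among them, at 4.79 and 10.1 scaled FPKM in Ob against 22.9 and 23.3 in Ob + Exe (log2 fold change 1.72, unadjusted p = 0.00438 in limma). Of 8 dendritic cell markers 4 were lower and 4 higher, and limma called 0 of them. Of 7 fibroblast markers 4 were lower and 3 higher, and Col1a1 was called (log2 fold change -1.01, unadjusted p = 0.0443 in limma). Monocyte markers summed to 553 and 503 in Ob, with 510 and 586 in Ob + Exe, a sum led by Ly6c2. Of these 9 markers 4 were lower and 5 higher, 2 had an unadjusted p under 0.05, and limma called Ace lower (log2 fold change -1.09, unadjusted p = 0.0369), a gene of patrolling monocytes. Some of the 10 genes are also read in such cells, Adgre1 in monocytes and Mrc1 in sinusoidal endothelium among them, and the part of these cells in the values above was not tested.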

How the data were processed

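Reads from 4 tibial bone marrow libraries were checked with FastQC, trimmed with fastp, freed of rRNA reads, aligned to GRCm38 with HISAT2 and filtered with SAMtools by the authors, who quantified GENCODE vM25 transcripts with StringTie. Tool versions are not given in the sources used here. The authors deposited the FPKM of each transcript, scaled to transcript length and library size. The deposited coverage signal still carries the depth of each library, and it was converted to read equivalents of 150 bases. No read counts were used, so the authors' DESeq2 test was not run.

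FPKM were summed over the transcripts of each gene. Genes with a mean of at least 0.1 FPKM were kept, libraries were scaled by median-of-ratios factors between 0.945 and 1.04 (scaled FPKM), and the groups were compared in limma 3.58.1 under R 4.3.3 on log2(scaled FPKM + 0.1). The functions were lmFit and eBayes (trend on, 2 residual and 3.79 prior degrees of freedom). A fold change on this scale understates the change of low genes. Calls took the thresholds of the study's methods. Adjusted p values are Benjamini-Hochberg values from limma over all genes, or all transcripts, tested. Chain ratios were compared with an exact permutation test. The fit was tested on simulated data with known changes. Exons came from GENCODE vM21 of GRCm38, where all 29 transcripts of the 10 genes had the same coordinates. Python 3.11.15, pandas 2.3.3 and matplotlib 3.10.9 served for tables and figures.

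The 10 genes and the gene lists were chosen with earlier results of these data known. Named were the 10 genes, called genes of each list (up to 5 per direction) or else examples from its 3 most abundant, and transcripts with at least 10% of the FPKM of their gene in a library. Other genes are said to have been chosen after their values were seen. The transcript Adgre1-201, at less than 10% of Adgre1 in each library, was also named after its values were seen. The labels number the replicates, but nothing describes shared animals or days, and the replicate differences of the groups correlated at -0.106. The number was therefore no part of the design. Depth gave the 10 genes 326 to 3133 read equivalents per library, and 2 libraries per group limit the precision.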

Additional observations from a re-analysis of the deposited data

How the results depend on the processing

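With 2 libraries per group, a difference smaller than the spread within a group was not detectable, and low transcripts rest on how StringTie divides them. The number of the 10 genes called was 0 under each of 14 alternatives. From 5 to 8 of the 10 were lower, and their median ran from -0.19 to -0.05. The median log2 fold change over all genes was -0.02, and -0.10 without scaling.

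The number of genes called, 696, was 222 with a pseudocount of 1, 270 with a minimum of 1 FPKM, 459 with limma voom, 1060 without the intensity trend and 597 to 1852 when a library was left out. With the replicate block it was 742, and the crossed pairing, added after the data were seen, gave 803. Transcripts called numbered 3004, 1808 with a pseudocount of 1 and 4053 to 6770 when a library was left out. The replicate block gave 2146 transcripts and the crossed pairing 2426. The replicate block changed no call among the 10 genes.

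When a library was left out, the log2 fold change ran from -0.18 to 0.17 for C1qb (above 0 without the second Ob or the second Ob + Exe library), from -0.21 to 0.38 for C1qc (below 0 without the first Ob or the first Ob + Exe library) and from -0.08 to 0.41 for Axl (below 0 without the first Ob + Exe library). Without scaling C1qc was at -0.00252. The log2 difference of the ratio of C1qc to C1qb, 0.09, ran from -0.12 to 0.30 and was below 0 without either first library. The cause was not tested.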

Other observations

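In the list of other macrophage genes, 14 of 18 tested genes overlapped between the groups, among them Fcna, Ms4a7 and Slco2b1 with log2 fold changes near 0. Selenop alone was higher without overlap, where 14.3% of all genes tested were. Another 3 low-level genes, Timd4, Vsig4 and Lyve1, were lower without overlap and without being called, where 18.3% of all genes tested were lower without overlap. The genes of this paragraph were chosen after their values were seen. Timd4, a phosphatidylserine receptor of resident macrophages, was at 0.583 and 0.501 scaled FPKM in Ob and at 0 and 0.167 in Ob + Exe, from 87, 73, 0 and 20 read equivalents (unadjusted p = 0.0513 in limma). It was called in 4 of 14 alternatives. Vsig4, a complement receptor of tissue macrophages, was at 1.47 and 0.846 in Ob and at 0.747 and 0 in Ob + Exe, and was called in 2 of 14 alternatives. Lyve1, a hyaluronan receptor, was at 0.912 and 0.957 in Ob and at 0.624 and 0.616 in Ob + Exe (unadjusted p = 0.329 in limma). In the engulfment list, Stab1, a scavenger receptor shared by macrophages and sinusoidal endothelium, was at 1.42 and 1.97 in Ob and at 0.966 and 0.696 in Ob + Exe (unadjusted p = 0.0903 in limma). More genes were above 0 in the Ob libraries, 23309 and 20663, than in the Ob + Exe libraries, 17752 and 19291, and its part in these values was not tested.

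Among the regulators, Id3, a transcriptional inhibitor that tissue macrophages use, was at 11.3 and 13.1 scaled FPKM in Ob and at 6.44 and 7.01 in Ob + Exe (log2 fold change -0.84, unadjusted p = 0.0144 in limma). Nr4a1, an orphan nuclear receptor of patrolling monocytes, was at 8.09 and 10.5 in Ob and at 5.75 and 4.94 in Ob + Exe (log2 fold change -0.78, unadjusted p = 0.0325 in limma). Serping1, the inhibitor of the C1 proteases, was at 6.06 and 9.66 in Ob and at 13.5 and 14.0 in Ob + Exe (log2 fold change 0.84, unadjusted p = 0.0328 in limma). These genes were named after their values were seen, their groups did not overlap, and none passed the fold threshold. The Benjamini-Hochberg adjusted p from limma was 0.959 for each. Of all genes tested, 18.3% were lower and 14.3% higher without overlap, and 940 of 18596 had an unadjusted p under 0.05 in limma.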
